A study of Mus musculus with 6 samples.

Results

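The Cyp2c genes of the mouse encode a family of liver monooxygenases, and 10 of them were followed here in the livers of soy-fed and chow-fed mice: Cyp2c29, Cyp2c37, Cyp2c38, Cyp2c39, Cyp2c40, Cyp2c44, Cyp2c50, Cyp2c54, Cyp2c55 and Cyp2c70. The members were found by the RefSeq accession that the array design gives each probe. They had 13 probes of 56605 on the array and made up 10 of 22911 named genes. The control group held 3 male mice kept on 100% regular chow, and the soy group held 3 male mice whose food was 75% regular chow and 25% soy bean. Feeding lasted 4 weeks and started at 12 weeks of age, and the strain was not given in the sources used here. Total RNA of the right liver lobe of each mouse was labelled with 1 dye and hybridised to 1 array, so that n = 3 in each group. Values are normalized signals on the log2 scale, and ± is the SD over the 3 arrays of a group.

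Cytochrome P450 enzymes of this family sit in the endoplasmic reticulum, carry a heme group and receive electrons from P450 reductase. They oxidise drugs, steroids and fatty acids, and several turn arachidonic acid and linoleic acid into epoxides or hydroxylated acids. In mice most of the genes lie side by side in 1 large cluster on chromosome 19, and liver is their main site of expression. The nuclear receptors CAR and PXR, the liver factor HNF4A and the pituitary growth hormone signal are known to set their levels.

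The livers of the soy group had lower mean signals for 8 of the 10 genes, led by Cyp2c37, Cyp2c50 and Cyp2c54, which were 1.75- to 1.76-fold lower. Cyp2c39, read by a dim probe, was the exception with a mean 1.91-fold higher, and the mean of Cyp2c38 differed by 0.070 on the log2 scale. None of these differences passed the test: 0 of the 13 probes reached an adjusted p under 0.05 with a fold above 1.5 or under 0.66 (limma, Benjamini-Hochberg over all probes), where 0.35% of all probes did (198 probes, between 23 without soy 3 and 199 without control 3 when 1 array was left out). At an unadjusted p under 0.05, 6 of the 13 probes were lower and 1 was higher, against 6.14% and 5.34% of all probes and 8.94% and 9.18% of the 27310 probes that were, like every Cyp2c probe, well above background on all 6 arrays. The soy and control arrays did not overlap for 8 of the 13 probes, 7 of them lower in soy and 1 higher, against 10.3% and 7.73% of all probes. Of the 27310 probes well above background, 12.1% were lower and 11.7% higher without overlap. The median change of the 10 genes, each by its brightest probe, was -0.54, and that of the 13513 genes well above background was -0.0050. The median over the 13 probes was -0.36. When 1 array was left out, it lay between -0.24 without control 3 and -0.60 without soy 1.

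**Figure D1:**
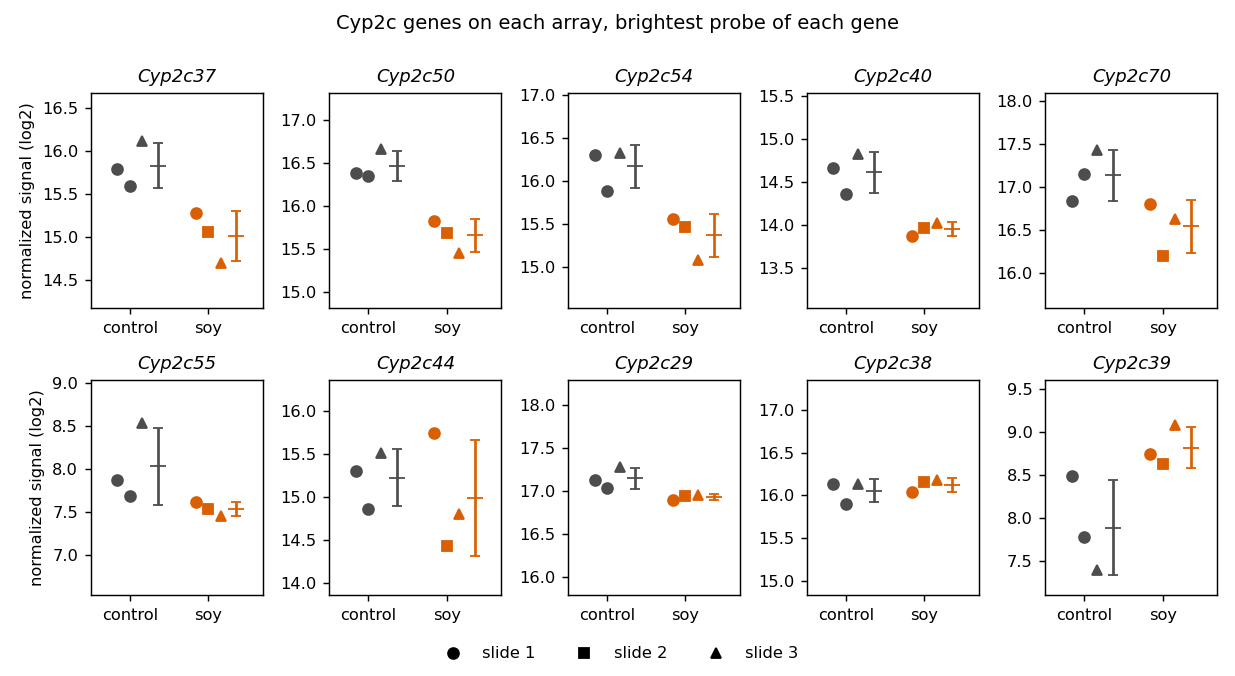
Normalized signal (log2) of the brightest probe of each Cyp2c gene on each array, with 1 point per mouse, bars at the group means and the vertical scale set for each gene. Control points lie above all soy points for 7 genes, below all of them for Cyp2c39, and among them for Cyp2c38 and Cyp2c44.

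The hepatocyte content of the samples was read from other genes. A list of 12 hepatocyte markers had a summed signal of 21.97 ± 0.03 in control and 21.91 ± 0.05 in soy (log2 of the sum), all 12 were well above background, and its most abundant gene was Serpina1b. Quantile normalization gives each array the same set of values, so a sum over very bright genes has little room to move. It is therefore a weak reading of hepatocyte content. The summed signals of Kupffer cell, endothelial, stellate, cholangiocyte and blood markers differed by 0.19, 0.10, -0.18, 0.094 and 0.24, led by Cd5l, Clec4g, Dcn, Spp1 and Hba-a1. The SDs of the Kupffer sums were 0.39 in control and 0.28 in soy, with control 1 the lowest array (44270). Those of the blood sums were 0.30 in control and 0.59 in soy, with soy 2 the highest array (363386). Larger differences were seen for pancreas markers (-0.65, 8 of 8 genes lower in mean, led by Cela1), for adipocyte markers (-0.83, led by Pck1, a gene that hepatocytes also express) and for intestinal markers (-0.37, led by Fabp2). The median changes over the genes of these lists were smaller, at -0.30 for pancreas, -0.13 for adipocyte and -0.0094 for intestinal markers, of which 4 of 8, 3 of 8 and 3 of 10 genes were well above background on all arrays. The sums of the pancreas markers were 35491, 50994 and 42794 in the control livers and 26837, 31592 and 23832 in the soy livers, while the adipocyte genes Plin1 and Adipoq and the intestinal genes Lct, Cdx1, Cdx2 and Vil1 were well above background on no array. Their part in the Cyp2c differences was not tested. In whole liver RNA, fewer cells that express a gene and less of its RNA per cell cannot be told apart.

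Cyp2c37, Cyp2c54 and Cyp2c50 are neighbours in that order within the cluster, and their enzymes oxidise arachidonic acid and linoleic acid. Cyp2c37 gave signals of 15.79, 15.59 and 16.12 on control arrays 1, 2 and 3 and of 15.29, 15.06 and 14.71 on soy arrays 1, 2 and 3. Every soy array lay below every control array, with soy 3 the lowest. The change was -0.82 (SE 0.19, 95% interval -1.25 to -0.38), with an adjusted p of 0.146 by limma.

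Cyp2c54 gave 16.31, 15.88 and 16.32 in control and 15.56, 15.46 and 15.08 in soy. Its groups were apart in the same way and soy 3 was again the lowest. The change was -0.80 (SE 0.17, 95% interval -1.20 to -0.40), with an adjusted p of 0.126 by limma.

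Cyp2c50 gave 16.39, 16.34 and 16.67 in control and 15.83, 15.69 and 15.45 in soy. The gap between the groups, from the lowest control array to the highest soy array, was wider than the whole range of either group. The change was -0.81 (SE 0.14, 95% interval -1.13 to -0.49), and its adjusted p of 0.0725 by limma was the smallest of the family. A second Cyp2c50 probe, designed for another transcript of the gene (NM_001167877), gave 10.22, 9.84 and 9.77 in control and 9.92, 9.46 and 9.38 in soy. On this probe soy 1 lay within the control range, and the change was -0.36 (SE 0.18, adjusted p = 0.512, limma), between -0.22 without control 1 and -0.52 without soy 1 when 1 array was left out.

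The promoters of these genes were read from RefSeq (GRCm38.p6) as the 250 bases before and the 50 bases after each start, and 8 of the 10 genes were matched, with 9 starts because Cyp2c39 has a second one. The promoter pair of Cyp2c37 and Cyp2c50 is shown whole, since these genes, with changes of -0.82 and -0.81, shared 264 of 300 bases there, or 88.0%. Over the 35 pairs of starts of different genes the identity ran from 53.3% to 88.0% with a median of 57.3%. The capitals mark CAAAGTCTA in Cyp2c37 and the bases aligned to it in Cyp2c50, which differ by A4T, counted from 1 at the 5′ end of the 9 bases. Cyp2c37 lies at chr19:39992174-39992473 and Cyp2c50 at chr19:40089429-40089728, both on the plus strand.
Cyp2c37: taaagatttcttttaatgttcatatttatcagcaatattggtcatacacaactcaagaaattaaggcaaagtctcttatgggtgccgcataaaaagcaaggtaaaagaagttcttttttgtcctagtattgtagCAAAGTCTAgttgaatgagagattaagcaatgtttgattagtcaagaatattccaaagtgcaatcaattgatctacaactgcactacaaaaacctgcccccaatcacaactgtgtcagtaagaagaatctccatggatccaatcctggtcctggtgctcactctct
Cyp2c50: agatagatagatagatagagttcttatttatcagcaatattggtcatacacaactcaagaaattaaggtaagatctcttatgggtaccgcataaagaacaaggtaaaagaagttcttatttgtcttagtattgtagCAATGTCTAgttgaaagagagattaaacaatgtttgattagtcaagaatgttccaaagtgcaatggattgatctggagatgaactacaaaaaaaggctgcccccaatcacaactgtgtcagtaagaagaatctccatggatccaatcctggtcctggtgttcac

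Both promoters lack the letters CAAAGTCCA, an HNF4A recognition core, which stood on either strand in 0.475% of 32851 promoters of the same length and among the family in Cyp2c40 and Cyp2c70. The looser form CAAAGTCNA, in which N is any base and which includes the stricter one, stood in 1.04% of all promoters and in 6 of the 9 Cyp2c promoters, those of Cyp2c29, Cyp2c37, Cyp2c40, Cyp2c70 and both starts of Cyp2c39. This motif was picked after the promoters had been read, and the promoters are related to each other, so the count describes shared sequence. The letters TATAAA stood in 13.6% of all promoters and in 6 of the 9. The windows below show 20 bases on either side of the 9 bases, in capitals, for the remaining genes that carry the motif. Cyp2c39 is shown by start 1 alone, and Cyp2c38 is added, whose aligned bases differ from those of Cyp2c39 start 1 by C7T.
Cyp2c29 (chr19:39286956-39287004, plus strand): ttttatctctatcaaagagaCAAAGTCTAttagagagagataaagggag
Cyp2c39 start 1 (chr19:39347212-39347260, plus strand): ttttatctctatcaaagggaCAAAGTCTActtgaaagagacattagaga
Cyp2c38 (chr19:39463158-39463206, minus strand): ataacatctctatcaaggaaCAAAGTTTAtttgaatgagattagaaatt
Cyp2c40 (chr19:39812831-39812879, minus strand): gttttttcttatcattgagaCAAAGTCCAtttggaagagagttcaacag
Cyp2c70 (chr19:40187322-40187370, minus strand): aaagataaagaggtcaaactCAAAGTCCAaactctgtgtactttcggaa

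A match in these windows is a description of the sequence, and no factor binding was measured.

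Cyp2c40 encodes an enzyme that hydroxylates arachidonic acid. Its signals were 14.66, 14.36 and 14.82 in control and 13.87, 13.97 and 14.02 in soy. The soy arrays lay close together, and all of them were below the lowest control array. The change was -0.66 (SE 0.14, 95% interval -0.97 to -0.34), a 1.58-fold lower mean, with an adjusted p of 0.115 by limma.

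Cyp2c67, Cyp2c68 and Cyp2c69 lie around Cyp2c40 in the cluster and are close relatives of it. Cyp2c68 gave 16.35, 15.90 and 16.46 in control and 15.49, 15.44 and 15.70 in soy, a change of -0.69 (SE 0.16, adjusted p = 0.152, limma). Cyp2c67 changed by -0.44 (SE 0.12) and Cyp2c69 by -0.46 (SE 0.14), with adjusted p of 0.202 and 0.255 by limma. The groups did not overlap for any of these relatives. Probe sequences were not used here, and how far probes of such similar transcripts read each other's RNA was not tested. This holds for the whole family, including Cyp2c37, Cyp2c50 and Cyp2c54, so the genes may not be separate readings.

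Of the other relatives on the array, Cyp2c65 was well above background on none of the arrays and Cyp2c66 on control 1 alone. No fold is given for either of them. The pseudogene Cyp2c53-ps overlapped between the groups, with a change of -0.075 (adjusted p = 0.912, limma) that turned to 0.12 without control 1. Over all 14 Cyp2c genes well above background, 12 had a lower and 2 a higher mean in soy, 10 were lower without overlap, and the median change was -0.48. Of the 13513 genes well above background, 50.9% had a lower mean and 12.2% were lower without overlap.

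Cyp2c70 makes the muricholic acids of the mouse from chenodeoxycholic acid, which sets mouse bile apart from that of humans. Its signals were 16.83, 17.15 and 17.43 in control and 16.80, 16.20 and 16.63 in soy. The groups were separated only by the small step between control 1 and soy 1. The change was -0.59 (SE 0.20, 95% interval -1.06 to -0.13), a 1.51-fold lower mean, with an adjusted p of 0.312 by limma. None of the 17 genes of a bile acid synthesis list passed in either direction, with 4 higher and 0 lower at an unadjusted p under 0.05 (limma). Over all 22911 named genes, counted in the same way, 0.34% passed higher and 0.192% lower, and 7.22% were higher and 7.04% lower at an unadjusted p under 0.05. These last shares were 10.8% and 9.29% among the 13513 genes well above background on all arrays. In the bile acid list Cyp8b1, the sterol hydroxylase that leads to cholic acid, gave 11.46, 11.63 and 11.95 in control and 12.20, 12.58 and 12.38 in soy (change 0.71, SE 0.16, adjusted p = 0.136, limma). Acox2, which shortens the side chain, and Baat, which conjugates bile acids, had changes of 0.64 and 0.56 (adjusted p = 0.0804 and 0.390, limma), the latter 0.28 without control 1, and the list median was 0.065. The first enzyme of the pathway, Cyp7a1, was looked at outside the naming rule and overlapped between the groups.

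Cyp2c29, Cyp2c38 and Cyp2c39 form another set of neighbours with related promoters, in which Cyp2c38 and Cyp2c39 start 1 were identical at 82.0% of bases and Cyp2c29 and Cyp2c39 start 1 at 79.0%. For Cyp2c39 start 2 these shares were 79.7% and 74.3%. The changes of Cyp2c29, Cyp2c38 and Cyp2c39, at -0.22, 0.070 and 0.93, were not tested against each other. Cyp2c29, an epoxygenase and a known CAR target, gave 17.13, 17.04 and 17.27 in control and 16.89, 16.94 and 16.95 in soy. The groups did not overlap, although the change of -0.22 (SE 0.10, 95% interval -0.45 to 0.02) was the smallest among the 7 lower genes without overlap, with an adjusted p of 0.469 by limma. Cyp2c38 gave 16.13, 15.90 and 16.14 in control and 16.04, 16.16 and 16.18 in soy. These ranges overlapped, and the 95% interval of the change of 0.070 ran from -0.18 to 0.32.

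Cyp2c39 encodes an enzyme that also hydroxylates retinoic acid. Its signals were 8.48, 7.78 and 7.40 in control and 8.75, 8.63 and 9.09 in soy. Every soy array was above every control array, and control arrays spread more widely (7.89 ± 0.55) than soy arrays (8.82 ± 0.24). The change was 0.93 (SE 0.27, 95% interval 0.31 to 1.55), with an adjusted p of 0.233 by limma. It ran from 0.69 to 1.23 when 1 array was left out. In a list of 18 genes of retinoic acid turnover on the array, 1 passed higher and 0 lower (0.34% and 0.192% of all genes), with 3 higher and 4 lower at an unadjusted p under 0.05 (7.22% and 7.04% of all genes, limma). These last shares were 10.8% and 9.29% among genes well above background on all arrays, as 14 of the 18 were. The gene that passed was Dhrs4, a retinal reductase (change 0.67, SE 0.09, adjusted p = 0.0428, limma). Aldh1a1, a retinal dehydrogenase, gave 0.72 (adjusted p = 0.0955) and Rdh11, a retinal reductase, gave -0.45 (adjusted p = 0.109), both by limma and short of the threshold.

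Cyp2c44, named Cyp2c23 in the RefSeq table, is an epoxygenase gene that lies apart from the cluster, with 52 protein-coding genes between it and Cyp2c70. It gave 15.30, 14.86 and 15.52 in control and 15.75, 14.44 and 14.80 in soy. Soy 1 was the highest and soy 2 the lowest of all arrays, and the SD of the soy group was 0.68. The change was -0.23 (SE 0.33, 95% interval -0.997 to 0.53, adjusted p = 0.832, limma). Its second probe (NM_001167905) gave 11.46, 11.62 and 12.52 in control and 12.63, 11.08 and 11.45 in soy, again with soy 1 the highest and soy 2 the lowest. The change there was -0.15 (SE 0.42, adjusted p = 0.923, limma), and on both probes it turned positive without soy 2, to 0.046 and 0.17.

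Cyp2c55 is known for its expression in the gut and for its induction in liver through CAR and PXR, and both of its probes were well above background on all 6 arrays. The brighter one gave 7.88, 7.69 and 8.54 in control and 7.63, 7.54 and 7.45 in soy. The groups did not overlap, and control 3 stood above the rest. The change was -0.49 (SE 0.21, adjusted p = 0.429, limma) and was -0.24 without control 3. On the other probe, soy 1 and soy 3 lay inside the control range, and the change was -0.15 (SE 0.14, adjusted p = 0.723, limma) and -0.0082 without control 3.

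**Figure D2:**
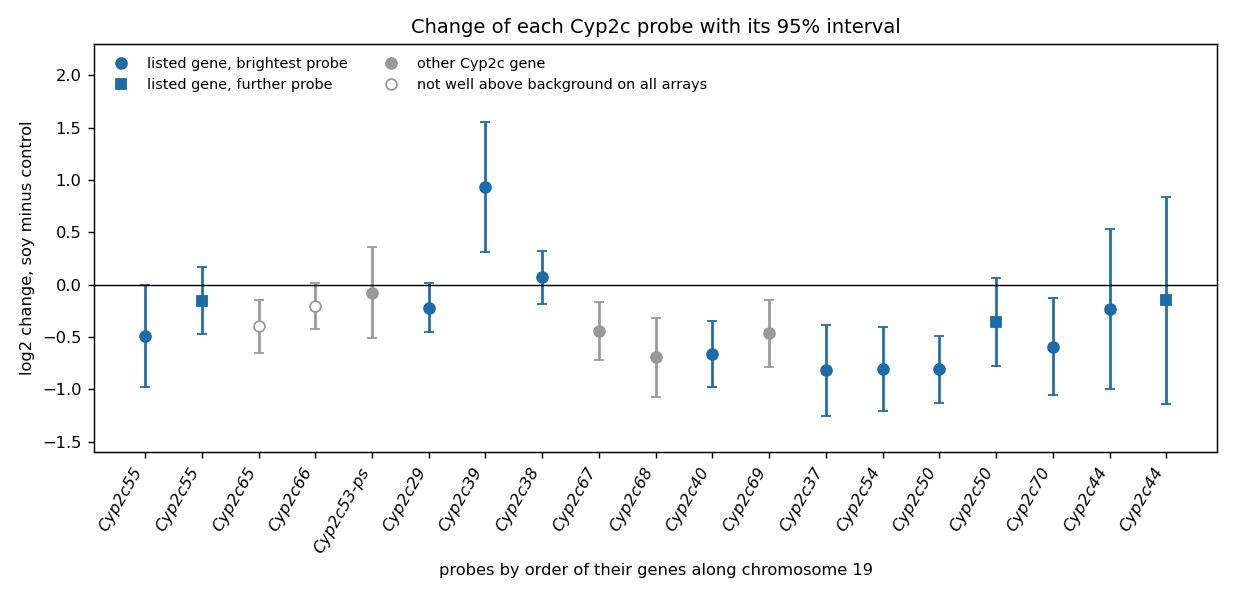
Log2 change (soy minus control) of each probe of the Cyp2c genes in the order of their genes along chromosome 19, with 95% intervals from the limma fit. The brightest probes of Cyp2c68, Cyp2c40, Cyp2c37, Cyp2c54 and Cyp2c50 lie lowest, between -0.66 and -0.82, the second Cyp2c50 probe lies at -0.36, and Cyp2c39 alone lies well above 0.

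Along the chromosome the genes with changes of -0.59 or lower ran from Cyp2c68 to Cyp2c70, interrupted by Cyp2c69 at -0.46 and by the second Cyp2c50 probe. Among all probes well above background on every array, 4.06% had a change of -0.5 or lower and 4.45% one of 0.5 or higher. The order was described after the values were known and was not tested.

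The arrays were hybridised on 3 slides. Slide 1 carried soy 1 next to controls 1 and 2, slide 3 paired soy 3 with control 3, and slide 2 held soy 2 by itself. Where the groups do not overlap, the sign within a slide follows from that, so only the size of the within-slide differences is described for these genes. For Cyp2c40 the difference was -0.64 on slide 1 and -0.80 on slide 3, nearly the same on both. Cyp2c37 differed by -0.41 on slide 1 and by -1.41 on slide 3. Cyp2c50 differed by -0.54 and -1.21, and Cyp2c54 by -0.54 and -1.24. For Cyp2c70 the values were -0.19 and -0.80, and for Cyp2c55 they were -0.16 and -1.08. Cyp2c39 was higher on both, by 0.62 and 1.69, so that slide 3 held the larger differences for all of these genes. Cyp2c44 differed by 0.66 on slide 1 and by -0.72 on slide 3, with opposite signs.

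With slide as a fixed block, the limma changes were -0.83 for Cyp2c50, -0.84 for Cyp2c37, -0.84 for Cyp2c54, -0.71 for Cyp2c40 and 1.08 for Cyp2c39, with adjusted p between 0.230 and 0.361. The number of spots well above background also differed between the diets, with 37010, 36366 and 38163 such spots for the control mice and 31308, 31988 and 32498 for the soy mice. The part of this difference in the Cyp2c values was not tested. No spot was saturated on any array.

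**Figure D3:**
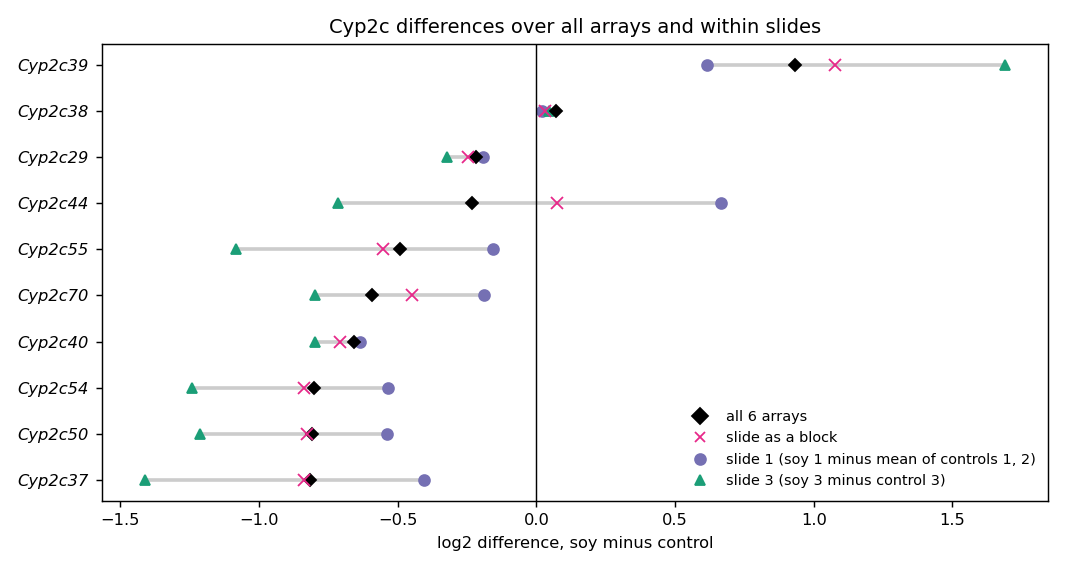
Log2 difference (soy minus control) of the brightest probe of each Cyp2c gene over all 6 arrays, on slide 1 and on slide 3, with 1 symbol for each. The slide 3 value is the farthest from 0 for every gene but Cyp2c38, and for Cyp2c44 slides 1 and 3 lie on opposite sides of 0. For the 8 genes whose groups do not overlap the side is fixed by that.

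Genes that share regulators, electron supply or substrates with the family were counted next, each by its brightest probe, except that a gene counts as passed where any of its probes did. CAR (Nr1i3), the receptor that induces many Cyp2c genes, had signals of 11.45, 11.39 and 11.94 in control and 12.54, 12.37 and 12.41 in soy. The groups were apart, and the change of 0.85 (SE 0.16) had an adjusted p of 0.0877 by limma. On its other probe Nr1i3 gave 9.35, 9.37 and 9.69 in control and 10.29, 10.43 and 10.31 in soy, and this change of 0.87 (SE 0.12, adjusted p = 0.0426, limma) passed. In the list of 27 regulators of P450 genes, 3 were higher and 3 lower at an unadjusted p under 0.05, beside 7.22% and 7.04% of all genes. Among genes well above background on all arrays, as 26 of the 27 were, the shares were 10.8% and 9.29%. Of the 27, 2 genes passed higher and 0 lower (0.34% and 0.192% of all genes), these being Nr1i3 by its other probe and Rxrg, a retinoid X receptor (change 1.44, SE 0.18, adjusted p = 0.0297, limma). HNF4A, looked at outside the naming rule, gave 16.72, 16.40 and 16.51 in control and 16.42, 16.30 and 16.16 in soy (change -0.25, SE 0.12, adjusted p = 0.495, limma). Without control 1 the HNF4A change was -0.16. Foxa3, a liver forkhead factor, gave -0.69 (adjusted p = 0.106), and the bile acid receptor gene Nr1h4 gave 0.39 (adjusted p = 0.261), both by limma. The widest change of the list was that of the circadian factor Dbp, named after its values were seen, at -2.59 (SE 0.85, adjusted p = 0.300, limma), with 15.85, 15.97 and 14.86 in control and 14.27, 13.86 and 10.76 in soy. Without soy 3 it was -1.49.

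Among 24 genes on the array that are known CAR or PXR targets outside Cyp2c, 17 had a higher and 7 a lower mean in soy, and the list median was 0.33 where that of the Cyp2c genes was -0.54. Of these, 2 passed higher and 0 lower (0.34% and 0.192% of all genes), and 12 were higher and 2 lower at an unadjusted p under 0.05, where 10.8% and 9.29% of all genes well above background were. The glutathione transferase gene Gstm1 rose by 0.96 (SE 0.13, adjusted p = 0.0398) and the transporter gene Abcc3 by 0.82 (SE 0.09, adjusted p = 0.0244), both by limma. The best known targets, chosen here outside the naming rule, were not alike. Cyp3a11, the main PXR target, gave 15.18, 15.83 and 16.41 in control and 17.19, 17.05 and 17.01 in soy (change 1.28, adjusted p = 0.128, limma). Cyp2b10, the main CAR target, gave 11.68, 10.28 and 8.18 in control and 9.09, 7.97 and 8.93 in soy, ranges that overlapped (change -1.38, adjusted p = 0.561, limma). Without control 1 this change was -0.57 and without control 3 it was -2.31. The other Cyp2b10 probe, well above background on no soy array, gave 8.72, 7.34 and 6.78 in control, without overlap and with control 1 again the highest. Its soy mean was at least 1.98-fold lower over all 6 arrays (adjusted p = 0.439, limma). For this limit each soy array was taken at its lowest signal well above background, or at the probe's own where that was higher. The limit covers the dim signals and leaves out the spread between mice. With the soy signals as read, the change of this probe was -0.447 without control 1 and -1.42 without control 3. The size of the limit therefore depends on control 1.

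For electron supply and heme, 0 of 15 genes passed in either direction, with 4 higher and 3 lower at an unadjusted p under 0.05 (limma), beside 10.8% and 9.29% of all genes well above background. Alas1, the first enzyme of heme synthesis, gave 17.13, 17.05 and 17.30 in control and 16.72, 15.92 and 16.40 in soy, without overlap (change -0.81, SE 0.20, adjusted p = 0.165, limma). The other named genes of this list had higher means in soy without overlap and did not pass either. They were the outer membrane cytochrome b5 gene Cyb5b (0.52, adjusted p = 0.124), the heme-binding Pgrmc1 (0.48, adjusted p = 0.175) and Cpox, a later enzyme of heme synthesis (0.57, adjusted p = 0.187), all by limma. P450 reductase (Por), added after its values were seen, gave 16.59, 16.57 and 16.75 in control and 16.55, 15.71 and 15.60 in soy. Soy 2 and soy 3 were low and soy 1 lay just under the controls (change -0.68, SE 0.24, adjusted p = 0.331, limma).

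Among 23 genes on the array that handle arachidonic acid beside Cyp2c, 7 were higher and 2 lower at an unadjusted p under 0.05 (7.22% and 7.04% of all genes). The shares were 10.8% and 9.29% among genes well above background on all arrays, as 18 of the 23 were. Of the 23, 2 passed higher and 0 lower (0.34% and 0.192% of all genes). Those that passed were Ephx1, a microsomal epoxide hydrolase, which gave 16.44, 15.81 and 16.45 in control and 17.42, 17.50 and 17.44 in soy (change 1.22, SE 0.18, adjusted p = 0.0473, limma), and the omega-hydroxylase gene Cyp4a14, with a change of 3.27 (SE 0.25, adjusted p = 0.00785, limma), well above background on 2 of the 3 control arrays. The fit took the dim signal of the remaining control array as read, so the size of the Cyp4a14 change is not exact. Ephx2, the soluble hydrolase that opens the epoxides of Cyp2c enzymes, gave 17.00, 16.82 and 16.80 in control and 17.49, 17.30 and 17.36 in soy, without overlap (change 0.51, SE 0.11, adjusted p = 0.115, limma). Of the genes named as passed in these lists, Cyp4a14 passed in each of 6 fits that left out 1 array, and Abcc3 and Dhrs4 passed in none. Ephx1 passed without control 2, Nr1i3 and Rxrg without control 3, and Gstm1 by its brightest probe without control 1, with adjusted p by limma up to 0.171 over the other fits. With slide as a fixed block the call of Cyp4a14 held (adjusted p = 0.0269, limma) and the others were lost, with adjusted p of 0.171 for Nr1i3, 0.112 for Rxrg, 0.184 for Gstm1, 0.127 for Abcc3, 0.213 for Ephx1 and 0.198 for Dhrs4. Because soy 2 adds nothing to that fit, a difference between slides and the loss of this array cannot be told apart.

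The remaining P450 genes of family 2 showed no shift of their middle, with a median change of -0.014 over 30 genes, 0 passed, and 1 higher and 4 lower at an unadjusted p under 0.05 (limma, 7.22% and 7.04% of all genes). For genes well above background on all arrays, as 26 of the 30 were, the shares were 10.8% and 9.29%. The genes of smallest p were Cyp2j9 (1.09), Cyp2g1 (-1.42), Cyp2a12 (-0.56) and Cyp2s1 (-0.48), with adjusted p of 0.141, 0.169, 0.314 and 0.334. Lists of genes with a known bias of sex or of position in the liver lobule were counted because several Cyp2c genes have such a bias. The medians were 0.066 over 20 male-biased genes and -0.0013 over 20 female-biased genes. They were -0.13 over 20 pericentral genes, the zone in which many P450 genes are expressed, and -0.12 over 20 periportal genes. No gene of these lists passed in either direction, and at an unadjusted p under 0.05 there were 3 higher and 2 lower male-biased genes, 4 and 3 female-biased, 4 and 2 pericentral, and 0 and 7 periportal genes (limma), beside 7.22% and 7.04% of all genes and 10.8% and 9.29% of those well above background.

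**Figure D4:**
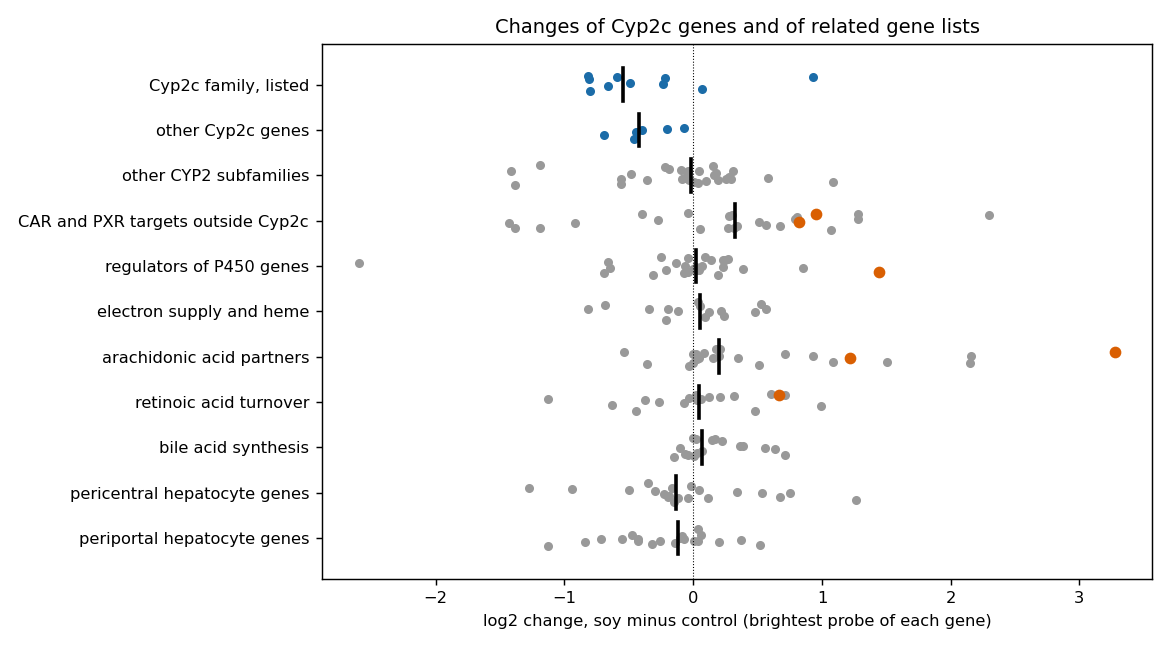
Log2 change (soy minus control) of each gene by its brightest probe in the Cyp2c family and in related lists, with 1 point per gene and a bar at each list's median. The Cyp2c median lies at -0.54, the median of CAR and PXR targets at 0.33, and those of most other lists near 0.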

How the data were processed

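The scanner output that the authors deposited for each 1-colour array came, per the file headers, from Agilent Feature Extraction 11.5.1.1. It gives the median intensity of a spot and its local background, neither corrected nor scaled, and a processed signal after background subtraction. It also flags outlier spots and those well above background. A log2 table of the same arrays, also deposited by the authors, had medians of 7.33 to 7.34, was not centred, and differed from the values used here by 0.056 at most.

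Median intensities were corrected with normexp (offset 50), control spots removed, arrays quantile normalized and log2 transformed, outlier spots (0.248%) left out and spots averaged per probe. In R 4.3.3, lmFit and eBayes of limma 3.58.1 fitted soy against control for all 56605 probes, and p was adjusted by Benjamini-Hochberg over all of them. Calls needed an adjusted p below 0.05 and a fold over 1.5 or below 0.66. Fits were tested on simulated data. Symbols came from RefSeq accessions, and the table's coordinates were not used because the array's design was made for an earlier build than GRCm38.p6. Promoters were read with Python 3.11.15 and aligned with Biopython 1.88.

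All Cyp2c genes were named, with every probe, and the brightest stood for a gene. From each other list up to 4 genes were eligible, first those that passed and then those of smallest p. The members and the lists were chosen with earlier results of these data known. The 6 arrays limit the precision. An exact permutation test of 3 against 3 cannot go below 0.1, so none was used, and p-values measure the spread between these mice. Alternatives were another offset, no correction, the processed signal, other scalings, a filter on dim probes, outliers kept, other eBayes settings, slide or replicate number as a block, the deposited table and each array left out.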

Additional observations from a re-analysis of the deposited data

How the results depend on the processing

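With 1 setting changed at a time, save that the processed signal was also scaled to the 75th percentile in place of quantiles, the count of 198 passed probes (118 higher, 80 lower) became 77 with offset 16, 13138 with the processed signal so scaled (11924 higher, 1214 lower), 299 with a 75th percentile shift (202 and 97), 493 among probes well above background alone (281 and 212), 77 with the replicate block and 24 with slide as a fixed block. With 1 array left out it ran from 23 to 199, being 102, 71 and 199 on dropping control 1, 2 or 3, and 50, 25 and 23 on dropping soy 1, 2 or 3. The slide block takes soy 2 out of the comparison, so its count of 24 stands beside the 25 without soy 2. The processed signal so scaled and the 75th percentile shift of the median signal, which share the scaling, moved the median over all probes to 0.13, and among probes well above background to -0.0029 and 0.02, with medians over the 13 Cyp2c probes of -0.42 and -0.34 against -0.36. That median was -0.60 without soy 1, -0.24 without control 3, -0.25 without soy 3 and -0.25 with slide as a fixed block.

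The count of passed Cyp2c probes, 0 as reported, was 4 of 13 with the processed signal scaled as above, where 13138 of the 56605 probes passed. All 4 were lower: Cyp2c50 (-0.80, adjusted p = 0.00706), Cyp2c40 (-0.65, 0.0247), Cyp2c54 (-0.81, 0.0288) and Cyp2c37 (-0.83, 0.0344), by limma. The count was 1, Cyp2c50, with the 75th percentile shift (-0.86, adjusted p = 0.0411), with probes well above background alone (0.0393) and with trended, robust eBayes (0.0445), and 0 in every fit that left out 1 array. With the shift, the filter and the eBayes setting, 299, 493 and 289 of all probes fitted passed. Over all alternatives the adjusted p of the brighter Cyp2c50 probe ran from 0.00706 to 0.258, of Cyp2c40 from 0.0247 to 0.271, of Cyp2c54 from 0.0288 to 0.321 and of Cyp2c37 from 0.0344 to 0.356.

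In fits over several slides, signs turned for 2 genes. Cyp2c38 was -0.0022 with the 75th percentile shift and -0.0079 without control 2. The brighter Cyp2c44 probe was 0.072 with slide as a fixed block and 0.046 without soy 2 (its range with 1 array left out was -0.61 to 0.046), and the other was 0.16 with the slide block, 0.18 without control 3 and 0.17 without soy 2 (range -0.60 to 0.18). The cause was not tested. Within slide 1 the changes moved by more than the spread between replicates for Cyp2c37 (-0.41), Cyp2c44 (0.66, other probe 1.08), Cyp2c50 (-0.54), Cyp2c54 (-0.54) and Cyp2c70 (-0.19), and within slide 3 for Cyp2c37 (-1.41), Cyp2c39 (1.69), Cyp2c50 (-1.21), Cyp2c54 (-1.24), Cyp2c55 (-1.08, other probe -0.41) and the other Cyp2c44 probe (-1.07). The other Cyp2c55 probe was 0.024 within slide 1, a turned sign of less than that spread. Replicate numbers were not taken as pairs, since the deviations of arrays with the same number correlated at 0.12, -0.057 and 0.11 for numbers 1, 2 and 3, of which 1 and 3 also share a slide. With the number as a block no Cyp2c probe passed.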
